A study of Danio rerio with 93 samples.

Results

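The genes described here encode the zebrafish UDP-glucuronosyltransferases and cytosolic sulfotransferases. They are the 42 genes, of 19913 in the count table, whose symbol begins with ugt1, ugt2, ugt5 or ugt8 or with sult and a digit: 26 glucuronosyltransferase genes and 16 sulfotransferase genes. UGT8, counted among the 26 by its symbol, encodes a galactosyltransferase. RNA was sequenced from single whole embryos of the SPF 5-D strain at 48 h post fertilization (hpf), 93 embryos in all. From 6 hpf the embryos, without their chorions, were held in 0.64% DMSO, either alone (18 controls) or with 1 of 5 smoke dyes (75 embryos). Each dye was given at 5 concentrations. They were 133, 171, 209, 261.5 and 314 µM for Disperse Blue 14 and 10, 25, 35, 45 and 55 µM for Disperse Red 9. For Solvent Red 169 they ran from 1 and 5 µM through 11.2 µM to 35.6 µM and then 50 µM. Solvent Yellow 33 was used from 7.5 and 9 µM through 10.5 µM to 12 µM and then 13.5 µM, and Solvent Violet 47 at 12, 17.5, 23, 31.5 and 40 µM. Each treatment group held 3 embryos and each dye had 4 controls of its own, except Solvent Violet 47 with 2.

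Both enzyme families make foreign compounds and hormones more soluble so that they can be excreted, a step called conjugation. Glucuronosyltransferases sit in the endoplasmic reticulum and transfer glucuronic acid from UDP-glucuronic acid, whereas sulfotransferases work in the cytosol and transfer sulfate from the donor PAPS. In mammals, several UGT1 genes are induced by the aryl hydrocarbon receptor (AhR), a transcription factor that planar aromatic compounds bind and that also induces cytochrome P450 family 1 genes, and by the stress-responsive factor Nrf2.

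Values are CPM, a gene's counts relative to the size of its library, scaled over all 93 embryos, and embryos are numbered by the replicate number in their labels. A gene was called a DEG when its edgeR quasi-likelihood test against the control of its dye gave a Benjamini-Hochberg adjusted p under 0.05 over all genes tested and a fold change over 1.5. The ± values of CPM are SD over embryos, and those of log2 fold changes are standard errors of the fit. Adjusted p-values are from edgeR. The labels do not give clutches or plates, so p-values measure the spread between these embryos. In whole embryos, fewer cells of a type and less RNA per cell cannot be told apart. Where groups are said not to overlap, the share of all genes doing so was not counted. In comparisons with 4 controls, 0 to 6 genes of the families lay above all controls and 0 to 8 below.

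Total counts ranged from 9171265 to 48188027 per embryo, and the second lowest was 22423359. Several libraries stood apart from their groups. They were picked after seeing the data, in part by sult6b1 and other genes reported below. Shifts of such genes without these libraries were thus partly fixed by that choice. The library labelled Disperse Blue 14 control 1 had 183 CPM of sult6b1 and 553 CPM of cyp1c1, a cytochrome P450 gene induced through the AhR, whereas the other 3 controls of the dye had at most 65.3 and 24.4 CPM. Disperse Blue 14 control 2 was the deepest library and had the lowest ugt1b5 (12.1 CPM) and UGT8 (8.59 CPM) of its group. Solvent Red 169 controls 1 and 2 had 123 and 129 CPM of sult6b1 against 46.1 and 45.1 CPM in controls 3 and 4, and 167 and 152 CPM of the neuron marker ELAVL4 against 551 and 467 CPM. The same 2 controls were also low in sult1st4 (5.05 and 6.78 CPM against 12.8 and 14.6 CPM) and ugt2b1 (3.15 and 1.95 CPM against 8.08 and 8.06 CPM). The library labelled 12 µM Solvent Yellow 33 embryo 3 was the shallowest and had 9.07 CPM of cyp1c1, where embryos 1 and 4 of its group had 769 and 780 CPM. For genes of both families, calls that ended or appeared without these libraries are named, most with their values in those fits. For the lists of related genes and markers, the larger changes in the number of calls are given. Calls over all genes moved in these fits as well. At 13.5 µM Solvent Yellow 33 they rose from 440 to 1583 without 12 µM embryo 3. At 314 µM Disperse Blue 14 they went from 2802 to 4009 without control 1 and to 1441 without controls 1 and 2. At 5 µM Solvent Red 169 they fell from 1117 to 0 without controls 1 and 2.

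Of the 42 genes, 34 passed the filter on low counts in every dye, 40 in at least 1 dye, and ugt5b5 and ugt5g2 in none. Only 17 genes had over 3 counts in all 93 embryos. Several others, such as sult1st2, ugt5b1 and ugt5f1, were at or under 3 counts in 1 embryo only. Within the 8 subfamilies, the genes with the highest mean CPM over the 18 controls were sult1st1 among 8 sult1 genes, sult2st1 among 3 sult2 genes, sult3st4 among 3 sult3 genes, sult6b1 over SULT4A1, ugt1b5 among 6 ugt1 genes, ugt2b1 among 5 ugt2 genes, ugt5g1 among 14 ugt5 genes, and UGT8 alone in its subfamily. CPM is not corrected for gene length, so these names follow read share. Over the controls, sult1st1 ranged from 63.3 to 245 CPM with a median of 185 CPM, and was called in none of the 25 comparisons with control. For sult2st1 the range was 24.8 to 49.7 CPM, and for ugt5g1 6.48 to 11.4 CPM. Neither was called in any comparison with control. In sult3st4 the controls ranged from 0.697 to 12.0 CPM, so 48 hpf embryos without dye already differed widely in this gene.

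Several of these genes lie side by side and resemble each other. In the RefSeq annotation of the assembly GRCz12tu, which is not the build of the counts and was used only for gene order, 40 of the 42 symbols matched. The spans of ugt1b1, ugt1b2, ugt1b3, ugt1b4, ugt1b5 and ugt1b7 overlap in a chain there, as do those of ugt5b1, ugt5b2, ugt5b3 and ugt5b4. Overlap was also found between ugt5a1 and ugt5a2 and between ugt5c1 and ugt5c3. In such clusters, first exons can share later exons, and Salmon divides reads that fit several of them by a model. Values of single ugt1b, ugt5a, ugt5b and ugt5c genes are therefore less certain than those of sult6b1, SULT4A1 or UGT8. Neighbouring pairs or runs without overlap were sult2st1 with sult2st2, ugt2b1 with ugt2b5, ugt5c1 with ugt5c2, sult3st5 with sult3st4 and sult3st2, and sult1st7 with sult1st9, sult1st1 and sult1st2.

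Across the 25 comparisons with control, 13 of the 42 genes were called at least once, in 33 calls of which 21 were higher and 12 lower than control. Disperse Red 9 gave none. Of all genes tested, 0% to 15.7% were called in a comparison, and the share for each is given below. An unadjusted p under 0.05 was reached by 1.19% to 41% of all genes in a comparison, for genes and lists alike. Called in several comparisons were sult6b1 (9 calls), ugt1b1 (6 calls), SULT4A1 and sult2st3 (3 calls each), and sult1st4, UGT8 and ugt2a4 (2 calls each). Only sult6b1 and ugt1b1 were called in 3 dyes. When the controls of all 5 dyes were pooled into 1 group, 12 of the 33 calls held: 7 of 9 in Solvent Yellow 33, 3 of 6 in Disperse Blue 14, 2 of 6 in Solvent Violet 47 and 0 of 12 in Solvent Red 169. The pooled group kept the control libraries that stood apart. The plot of log2 fold changes by concentration shows the 33 calls as dots on a field of mostly small differences.

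**Figure D1:**
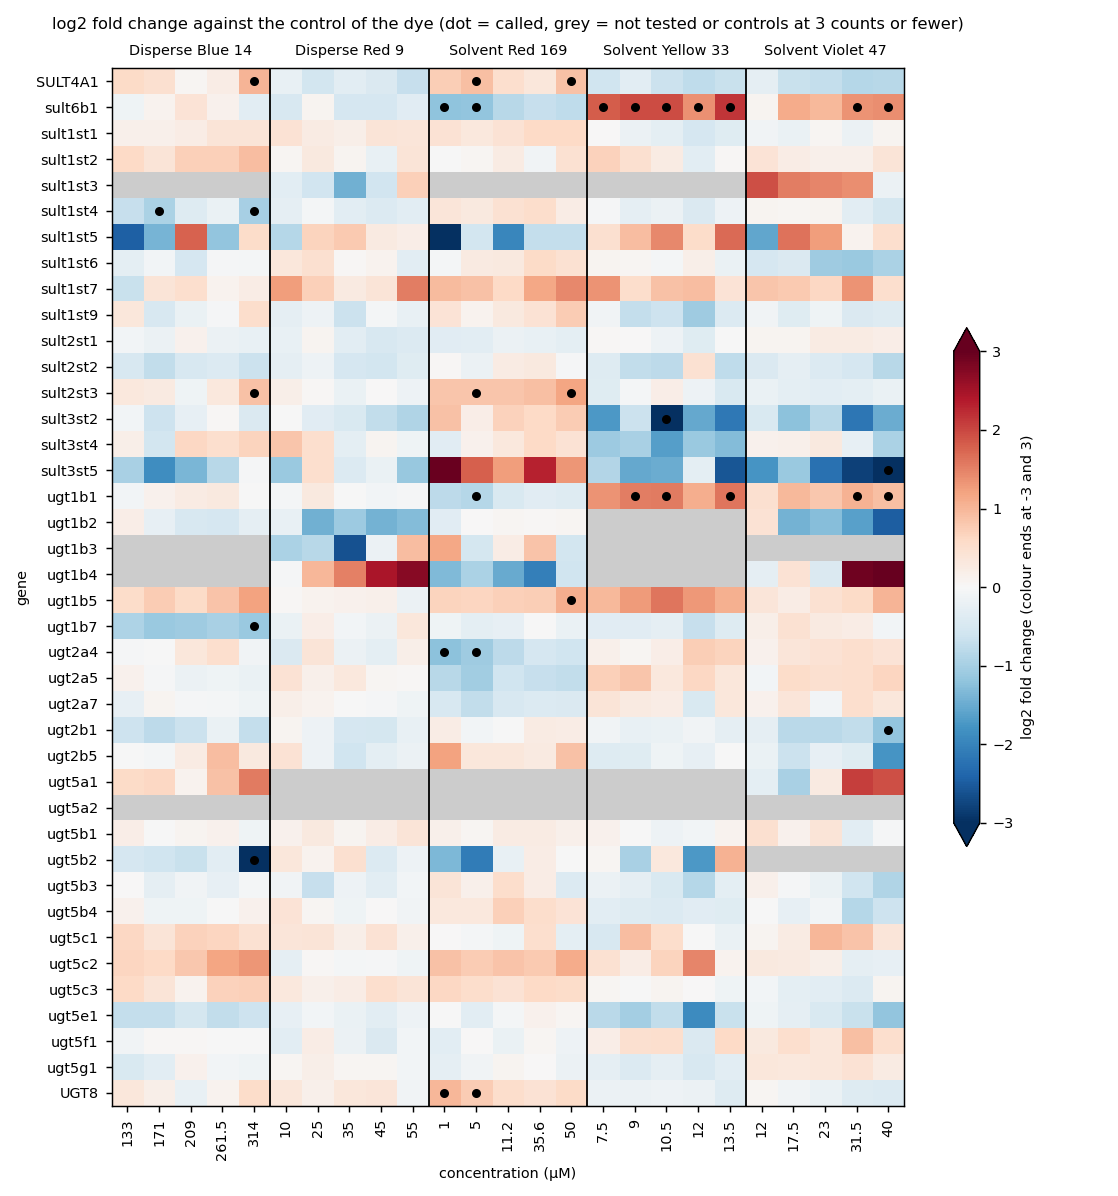
Log2 fold change against the control of the dye (colour, from blue for lower to red for higher) for the 40 genes tested in at least 1 dye (rows) at each concentration in µM (columns, grouped by dye). Dots mark genes called at an adjusted p under 0.05 and a fold over 1.5, grey fields were not tested or had 3 counts or fewer in every control, and the row of sult6b1 carries 9 of the 33 dots.

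With Solvent Yellow 33, a quinoline dye with an indandione ring, 3 of the 34 genes tested were called at 1 or more concentrations. Called were 1 gene at 7.5 µM, where 0.182% of all 17577 genes tested were called, 2 genes at 9 µM (0.671% of all genes), 3 at 10.5 µM (1.08%), 1 at 12 µM (1.08%) and 2 at 13.5 µM (2.5%). They were sult6b1 at all 5 concentrations, ugt1b1 at 9, 10.5 and 13.5 µM, and sult3st2, which was lower at 10.5 µM. With Solvent Violet 47, 4 of 39 genes were called: 2 at 31.5 µM, beside 6.26% of all 17921 genes, and 4 at 40 µM, beside 15% of all genes. No gene of the families was called by edgeR at 12, 17.5 or 23 µM (0% of all genes in each), where 1, 4 and 7 had an unadjusted p under 0.05 and DESeq2 called 0, 1 and 1. Of all genes tested, 1.19%, 6.96% and 9.19% had an unadjusted p under 0.05 there.

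With Disperse Blue 14, which carries 2 methylamino groups on an anthraquinone, 5 of 36 genes were called: 1 at 171 µM, beside 0.766% of all 17887 genes, and 5 at 314 µM, beside 15.7%. At 133, 209 and 261.5 µM, where 0.101%, 0.134% and 1.07% of all genes were called, edgeR called no gene of the families, 5, 2 and 3 had an unadjusted p under 0.05, and DESeq2 called 1 in each. Such a p was reached by 13.4%, 8.57% and 17.1% of all genes at these concentrations. With Solvent Red 169, which carries 1 isopropylamino group on an anthraquinone, 7 of 37 genes were called: 3 at 1 µM (3.73% of all 17840 genes), 6 at 5 µM (6.26%) and 3 at 50 µM (3.25%). At 11.2 and 35.6 µM (0% of all genes in both) edgeR and DESeq2 called none, and 8 and 5 of the 37 genes had an unadjusted p under 0.05, beside 24.1% and 23.6% of all genes. Without control 1 of Solvent Red 169 none of its 7 genes was called, and without control 2 only SULT4A1 and UGT8 were, both at 5 µM. Of all genes, 1117 were called at 5 µM with all embryos, 120 without control 1 and 471 without control 2. At the other concentrations 0 of all genes were called without control 1 and at most 16 without control 2.

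With Disperse Red 9, which carries 1 methylamino group on an anthraquinone, edgeR and DESeq2 called none of the 38 genes at any concentration. The share of all 17869 genes called was 0% at 10 and 25 µM, 0.0951% at 35 µM, 1.41% at 45 µM and 0.683% at 55 µM. An unadjusted p under 0.05 was reached by 0, 1, 0, 2 and 3 genes of the families in that order. The shares of all genes reaching it were 4.85%, 7%, 8%, 15.3% and 13.9%. The median log2 fold change of the 38 genes lay between -0.14 and 0.10 over the 5 concentrations, beside medians of -0.05 to 0.03 over all genes tested. Over the 20 comparisons of the other 4 dyes, the medians of the families lay between -0.27 and 0.28, beside -0.07 to 0.05 over all genes. The 3 anthraquinone dyes share no concentration, and their values stand side by side without a comparison between them.

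The sulfotransferase gene sult6b1 (ENSDARG00000086826) was the most often called gene. Its product is a member of a sulfotransferase family whose substrates are little known. In the 4 controls of Solvent Yellow 33 it was measured at 32.4, 31.4, 37.1 and 40.5 CPM. At 7.5 µM the 3 embryos had 109, 136 and 130 CPM, and at 13.5 µM they had 142, 160 and 172 CPM. All 6 of these embryos thus lay far above all 4 controls.

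At 9 µM, sult6b1 was at 140, 154 and 122 CPM, and at 10.5 µM at 101, 155 and 157 CPM, again with no overlap with the controls. At 12 µM, embryos 1 and 4 had 144 and 98.2 CPM, whereas the shallow library labelled embryo 3 had 33.4 CPM and lay among the controls. From the lowest to the highest concentration, the log2 fold changes were 1.82 ± 0.31, 1.97 ± 0.31, 1.96 ± 0.31, 1.38 ± 0.31 and 2.16 ± 0.32. Their adjusted p-values were 0.0217, 0.00687, 0.00536, 0.0444 and 0.00219 (edgeR, 3 embryos against 4). The rise was 3.52-fold at the lowest and 4.46-fold at the highest concentration, and these did not differ beyond the spread (log2 difference 0.34 ± 0.33, adjusted p = 1). Against the pooled controls of all dyes, the log2 fold changes of sult6b1 were smaller. They were 0.97 (adjusted p = 0.239) at 7.5 µM and 0.54 (0.244) at 12 µM, where neither was called, and 1.12 at 9 µM, 1.12 at 10.5 µM and 1.31 at 13.5 µM, where all 3 were.

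The sult6b1 calls at 9, 10.5 and 13.5 µM held when any 1 embryo of the dye was left out. At 7.5 µM the call was lost in the 7 of 19 fits that left out an embryo of either group compared, with log2 fold changes of 1.75 to 1.91 and adjusted p-values of 0.0745 to 0.134. At 12 µM it was lost in 16 of 19 fits. Without the library labelled embryo 3, the 12 µM value was 1.75 ± 0.18 (adjusted p = 2.28e-05) and the standard errors at the other concentrations fell to 0.16.

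In Solvent Violet 47 embryos, sult6b1 was also higher at the upper concentrations. The 2 controls had 34.5 and 26.3 CPM, and the 12 µM embryos overlapped them with 21.2, 36.3 and 40.1 CPM. At 17.5 µM the values were 50.9, 68.4 and 79.5 CPM, and at 23 µM 63.9, 55.9 and 62.2 CPM. From 17.5 µM on, no exposed embryo overlapped the controls, yet at 17.5 and 23 µM the differences (2.15-fold and 1.97-fold) had adjusted p-values of 0.534 and 0.302 and were not called. With only 2 controls such separation was common. Of 39 genes of the families, 7 lay above and 10 below both controls at 17.5 µM, and 11 and 10 at 23 µM. The counts were 14 and 12 at 31.5 µM, and 8 and 12 at 40 µM.

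At 31.5 µM Solvent Violet 47, sult6b1 reached 67.9, 68.0 and 103 CPM, and at 40 µM 92.6, 67.5 and 85.4 CPM. On the log2 scale it rose by 1.36 ± 0.28 (adjusted p = 0.0134) at 31.5 µM and by 1.40 ± 0.28 (adjusted p = 0.00395), with 3 embryos against 2. The comparison of 40 with 12 µM, which uses no control, gave a log2 difference of 1.31 ± 0.24 (adjusted p = 0.00196), and this call held in all 17 fits with 1 embryo left out. Without control 4 neither call against control held (adjusted p = 0.196 and 0.0797), and at 31.5 µM neither did it without control 3 (0.0719) or 31.5 µM embryo 4 (0.0519). In those fits the lone control is assumed to vary like the other groups. Against the pooled controls of all dyes, sult6b1 was not called in Solvent Violet 47 embryos, with log2 fold changes of 0.32 at 31.5 µM (adjusted p = 0.73) and 0.37 at 40 µM (adjusted p = 0.397).

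**Figure D2:**
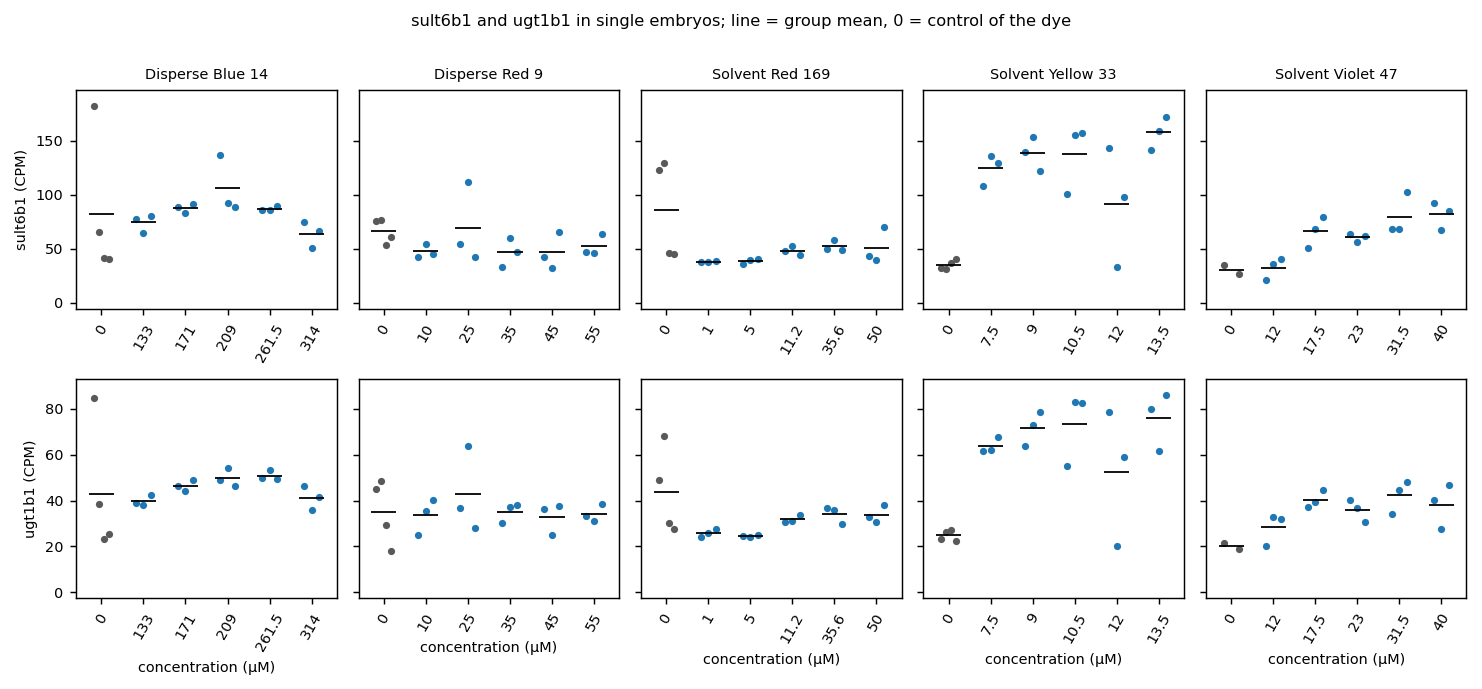
CPM of sult6b1 (upper row) and ugt1b1 (lower row) in every embryo (points, grey for controls, blue for exposed) with the group mean (line), by concentration in µM for each dye. In Solvent Yellow 33 embryos sult6b1 lay between 101 and 172 CPM outside the 12 µM group, above the 4 controls at 31.4 to 40.5 CPM. Disperse Blue 14 control 1 stands at 183 CPM.

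In Disperse Blue 14 embryos, sult6b1 was not called at any concentration with all embryos in the fit. The controls had 183, 65.3, 41.8 and 40.4 CPM. Exposed embryos had 77.9, 64.9 and 80.8 CPM at 133 µM, 89.0, 83.0 and 91.7 CPM at 171 µM, and 137, 92.1 and 88.7 CPM at 209 µM. They had 86.0, 85.7 and 90.0 CPM at 261.5 µM and 74.6, 50.6 and 66.5 CPM at 314 µM. All 12 embryos between 133 and 261.5 µM except 133 µM embryo 3 therefore lay above controls 2, 3 and 4, and all lay below control 1.

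With control 1 in the fit, the log2 fold changes of sult6b1 in Disperse Blue 14 embryos were between -0.32 and 0.40, with adjusted p-values of 0.522 to 0.882. Without control 1, they were 0.60, 0.83, 1.12, 0.85 and 0.40 from the lowest to the highest concentration, and sult6b1 was called at 171 µM (adjusted p = 0.0271), 209 µM (0.00723) and 261.5 µM (0.024). Control 1 was picked partly for its high sult6b1, so higher values without it were partly fixed by that choice. Without controls 1 and 2, also chosen after seeing the data, sult6b1 was called at all 5 concentrations with log2 fold changes of 0.65 to 1.37. Summed over the 6 AhR target genes, control 1 had 726 CPM, controls 2, 3 and 4 had 46.2, 46.3 and 40.9 CPM, and the exposed embryos had 194 to 412 CPM. Why control 1 stood apart was not tested.

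In Solvent Red 169 embryos, the lower sult6b1 values rested on 2 controls. The controls had 123, 129, 46.1 and 45.1 CPM, the 1 µM embryos 37.6, 37.4 and 38.7 CPM, and the 5 µM embryos 35.7, 39.3 and 40.4 CPM. Values at 11.2, 35.6 and 50 µM lay between 39.9 and 70.0 CPM, among or near controls 3 and 4. With all controls sult6b1 was called lower at 1 µM (log2 fold change -1.20 ± 0.31, adjusted p = 0.045) and at 5 µM (-1.18 ± 0.31, adjusted p = 0.0357). Without controls 1 and 2, the values were -0.31 ± 0.18 (adjusted p = 0.52) and -0.29 ± 0.18 (adjusted p = 0.515). These controls were picked partly for their high sult6b1, so smaller differences without them were partly fixed by that choice. Leaving out control 1 or control 2 alone also ended both calls, with adjusted p-values of 0.0916 to 0.12. With any 1 embryo left out in turn, the call at 1 µM was lost in 14 of 19 fits and that at 5 µM in 7 of 19.

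**Figure D3:**
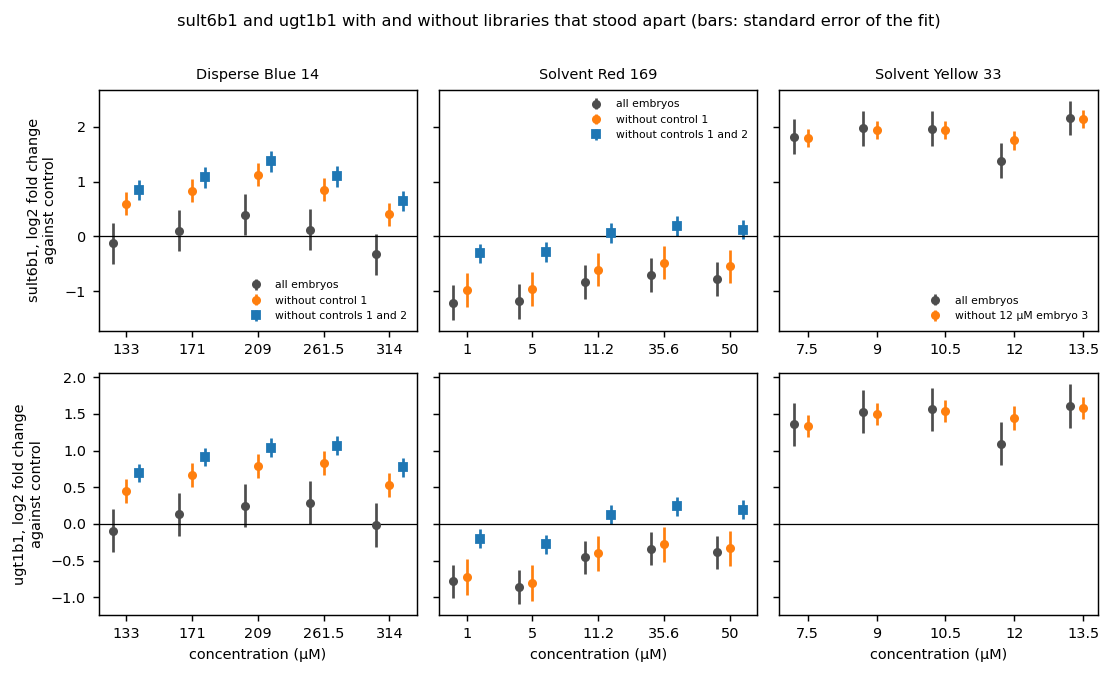
Log2 fold change against control of sult6b1 (upper row) and ugt1b1 (lower row) by concentration in µM, with all embryos (grey) and without the libraries that stood apart (orange and blue, as in each legend). Bars are standard errors of the fit. Without control 1, sult6b1 in Disperse Blue 14 embryos moved from 0.40 to 1.12 at 209 µM, and without controls 1 and 2, in Solvent Red 169 embryos it moved from -1.20 to -0.31 at 1 µM.

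In Disperse Red 9 embryos, sult6b1 was at 76.0, 76.2, 53.9 and 61.1 CPM in the controls. The 15 exposed embryos ranged from 31.9 to 112 CPM. Their highest value, in 25 µM embryo 3, stood apart from 54.5 and 42.8 CPM in the other embryos of its group. The log2 fold changes lay between -0.51 and 0.07 and the lowest adjusted p was 0.45, so no difference was detectable between these embryos.

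The glucuronosyltransferase gene ugt1b1 followed in the number of calls. It belongs to the UGT1 family, whose mammalian members conjugate bilirubin, phenols and many drugs. Its Solvent Yellow 33 controls were at 23.4, 26.4, 27.2 and 22.4 CPM. At 9 µM the embryos had 63.8, 73.2 and 78.5 CPM, and at 13.5 µM 79.8, 61.8 and 86.0 CPM. Every one of these embryos lay above every control.

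At 7.5 µM, ugt1b1 was at 61.5, 62.1 and 67.7 CPM, also without overlap, and its log2 fold change of 1.36 ± 0.29 had an adjusted p of 0.0942 and was not called. At 10.5 µM it was at 54.9, 83.2 and 82.5 CPM. At 12 µM embryos 1 and 4 had 78.6 and 59.1 CPM and the library labelled embryo 3 had 20.2 CPM. The gene was called with log2 values of 1.53 ± 0.29 at 9 µM (adjusted p = 0.0192), 1.56 ± 0.29 at 10.5 µM (adjusted p = 0.0168) and 1.61 ± 0.29 at 13.5 µM (adjusted p = 0.00878).

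Only the ugt1b1 call at 13.5 µM Solvent Yellow 33 held in every fit with 1 embryo left out. At 9 µM the call was lost in 7 fits, each without an embryo of the groups compared, and at 10.5 µM in 6 of the same kind, with log2 fold changes of 1.46 to 1.61 and adjusted p-values of 0.0553 to 0.109. Without the library labelled 12 µM embryo 3, ugt1b1 was called at all 5 concentrations with log2 fold changes of 1.33 to 1.58. In Solvent Violet 47 embryos, ugt1b1 was at 21.6 and 18.8 CPM in the controls. It was at 34.0, 44.6 and 48.1 CPM at 31.5 µM and at 40.4, 27.4 and 46.9 CPM at 40 µM, above both controls. At these concentrations 14 and 8 of 39 genes tested, ugt1b1 among them, lay above both controls.

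The log2 fold changes of ugt1b1 in Solvent Violet 47 embryos were 1.04 ± 0.25 at 31.5 µM (adjusted p = 0.0256) and 0.89 ± 0.25 at 40 µM (adjusted p = 0.025). Without control 3 or control 4 neither held (adjusted p from 0.107 to 0.269). At 31.5 µM the call was also lost without embryo 3 (0.0706) or embryo 4 (0.0833), and at 40 µM without embryo 4 (0.101). Against the pooled controls of all dyes, the log2 fold changes were 0.28 (adjusted p = 0.713) and 0.13 (0.729), and ugt1b1 was not called. Those 18 controls, with the libraries that stood apart, had a mean of 34.8 CPM and a median of 27.4 CPM of ugt1b1. Against 12 µM, the 40 µM group differed by 0.41 ± 0.22 on the log2 scale (adjusted p = 0.205), and the groups overlapped.

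In Disperse Blue 14 controls, ugt1b1 was at 84.6, 38.6, 23.2 and 25.5 CPM, and the 15 exposed embryos lay between 35.9 and 54.0 CPM. Control 1 alone stood above all exposed embryos. With it ugt1b1 was not called at any concentration, and without it ugt1b1 was called at 171 µM (log2 fold change 0.67, adjusted p = 0.0256), 209 µM (0.79, adjusted p = 0.0154) and 261.5 µM (0.83, adjusted p = 0.00681). Without controls 1 and 2 it was called at all 5 concentrations, with log2 fold changes of 0.70 to 1.07. In Solvent Red 169 embryos, controls 1 to 4 had 48.8, 68.2, 30.1 and 27.6 CPM and the 5 µM embryos 24.5, 24.1 and 24.8 CPM. The call of lower ugt1b1 at 5 µM (-0.86 ± 0.23, adjusted p = 0.0354) ended without controls 1 and 2 (-0.28 ± 0.13, adjusted p = 0.349). It was lost in 7 of 19 fits with 1 embryo left out, among them those without control 1 (adjusted p = 0.0925) or control 2 (0.0805).

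In Disperse Red 9 embryos, ugt1b1 ranged from 18.0 to 48.4 CPM in the controls and from 25.0 to 63.6 CPM in the exposed embryos, which overlapped at every concentration. Among the other ugt1 genes, ugt1b5 was called higher at 50 µM Solvent Red 169, at 99.0, 74.0 and 54.3 CPM against controls at 42.0, 19.1, 50.6 and 29.1 CPM. The log2 fold change was 1.08 ± 0.28 (adjusted p = 0.0461), and the call was lost in 16 of 19 fits with 1 embryo left out. Solvent Yellow 33 embryos had ugt1b5 at 50.6 to 66.4 CPM in the controls and 104 to 334 CPM in all exposed embryos but the library labelled 12 µM embryo 3, which had 11.1 CPM. Without that library ugt1b5 was called higher at 9 µM (log2 fold change 1.25), 10.5 µM (1.58), 12 µM (1.82) and 13.5 µM (1.04). In Disperse Blue 14 embryos the ugt1b5 controls had 112, 12.1, 51.5 and 49.1 CPM, and without control 1 the gene was called higher at 261.5 µM (1.43) and 314 µM (1.76), as it was without controls 1 and 2 (0.99 and 1.33). The Solvent Red 169 call ended without controls 1 and 2, and against the pooled controls of all dyes the log2 fold change of ugt1b5 there was 0.47 (adjusted p = 0.96). The pooled fit, with 12 µM embryo 3 kept, called ugt1b5 higher in Solvent Yellow 33 embryos at every concentration but 7.5 µM. These log2 fold changes were 1.45 at 9 µM, 1.76 at 10.5 µM, 1.47 at 12 µM and 1.24 at 13.5 µM. Pooled controls also gave higher ugt1b5 calls at 314 µM Disperse Blue 14 (1.19) and 40 µM Solvent Violet 47 (1.13), and in no other comparison.

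The neighbouring gene ugt1b7 went the other way in Disperse Blue 14 embryos. Controls had 6.92, 8.77, 6.78 and 7.06 CPM and the 314 µM embryos 3.36, 2.92 and 3.77 CPM. The groups did not overlap, and the log2 fold change was -1.11 ± 0.31 (adjusted p = 0.0308). The call was lost without 314 µM embryo 3 (adjusted p = 0.158) or 4 (0.072) or control 2 (0.062), and also without controls 1 and 2. All 12 embryos of the 4 lower concentrations, at 1.53 to 5.38 CPM, lay below the controls too, without a call against these controls. Against the pooled controls of all dyes, ugt1b7 was called lower at 171 µM (-1.14, adjusted p = 0.0101) and 209 µM (-1.11, adjusted p = 0.0221). It was also called lower in that fit at 261.5 µM (-1.03, adjusted p = 0.0198) and 314 µM (-1.15, adjusted p = 0.00709), and not at 133 µM. Between 40 and 12 µM Solvent Violet 47, ugt1b2 was called lower (log2 difference -2.90 ± 0.89, adjusted p = 0.033). Here 12 µM embryo 1 had 2.74 CPM and the others of both groups had 0 to 0.684 CPM, and without that embryo the value was -1.40 (adjusted p = 0.262). Leaving out any embryo of the 40 µM group also ended the call (0.0541 to 0.0827), with a log2 difference of -3.59 without embryo 4.

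Among ugt2 genes, which in mammals conjugate steroids and bile acids, ugt2a4 was called lower in Solvent Red 169 embryos. Its controls had 5.84, 9.73, 4.73 and 3.78 CPM, the 1 µM embryos 2.34, 2.38 and 3.08 CPM, and the 5 µM embryos 2.67, 3.10 and 2.94 CPM. No exposed embryo of these groups reached the lowest control. The log2 fold changes were -1.23 ± 0.30 (adjusted p = 0.0406) and -1.07 ± 0.29 (adjusted p = 0.0407). Each call was lost in 13 of 19 fits with 1 embryo left out (adjusted p from 0.0504 to 0.177), and both without controls 1 and 2.

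At 40 µM Solvent Violet 47, ugt2b1 was lower, at 5.16, 1.40 and 3.84 CPM against 7.69 and 7.88 CPM in the controls (log2 fold change -1.19 ± 0.37, adjusted p = 0.04). That call was lost in 10 of 17 fits. Embryo 3 of the 40 µM group was the lowest of the 3, and without it the log2 fold change was -0.83 (adjusted p = 0.0571). Of the 5 ugt2 genes, ugt2a5, ugt2a7 and ugt2b5 were called in no comparison with a dye's own control. In Disperse Blue 14 embryos ugt2b1 was called lower at 314 µM (log2 fold change -1.04, adjusted p = 0.0482) without controls 1 and 2, at 5.00, 3.42 and 4.03 CPM against 5.11, 5.37, 7.38 and 9.79 CPM in controls 1 to 4.

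The ugt5 genes, a family that mammals lack, held 14 members and few calls. The gene ugt5b2 was called lower at 314 µM Disperse Blue 14. Controls had 11.6, 12.1, 9.59 and 10.8 CPM, and the 314 µM embryos 2.84, 0.352 and 0.218 CPM. The log2 fold change was -3.20 ± 0.57 (adjusted p = 0.0074), a 9.17-fold lower level, and the groups did not overlap. Without 314 µM embryo 3 it was -2.78 (adjusted p = 0.0502). Without embryo 2, the highest of the 3, it was -5.28 (adjusted p = 6.73e-05), and against the pooled controls of all dyes it was -2.33 (adjusted p = 0.161) and not called.

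The level of ugt5b2 varied between embryos of the same group in the other dyes as well. It was over 3 counts in 84 of 93 embryos. Both Solvent Violet 47 controls were at 0 counts, which allows up to 0.0951 and 0.111 CPM (3 counts, for counting error only), and no fold is given against them. Exposed embryos of that dye ranged from 0 to 9.30 CPM. Single embryos at 0 occurred beside group mates with several CPM at 55 µM Disperse Red 9 (0, 7.42 and 5.86 CPM), 11.2 µM Solvent Red 169 (11.6, 0 and 5.36 CPM) and 9 µM Solvent Yellow 33 (0, 1.88 and 3.78 CPM). The controls of Solvent Yellow 33 had 1.08, 5.56, 1.59 and 6.52 CPM, so an embryo without dye could also be low.

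**Figure D4:**
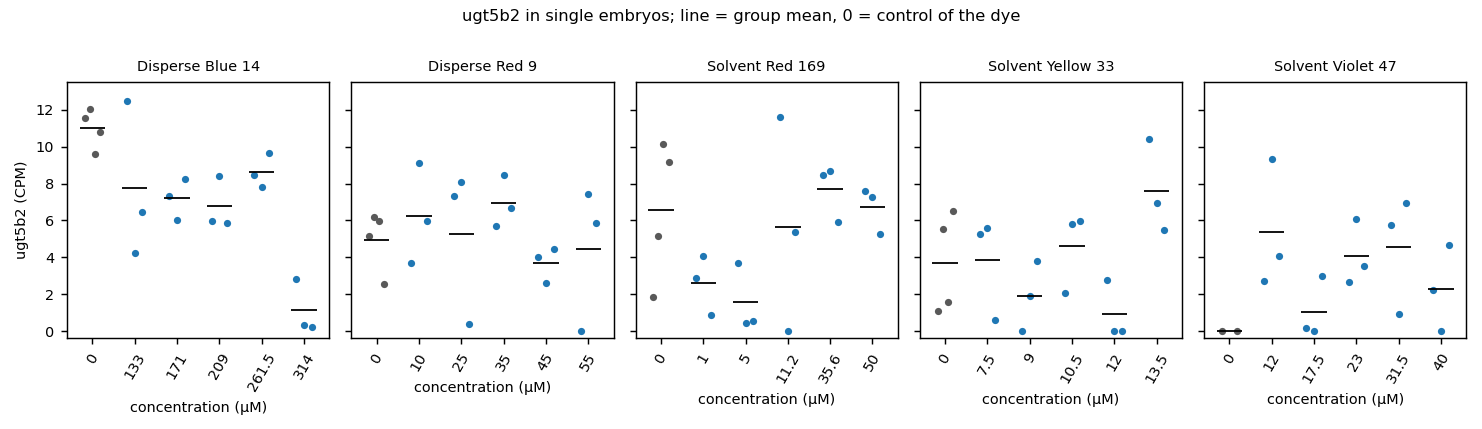
CPM of ugt5b2 in every embryo (points, grey for controls, blue for exposed) with the group mean (line), by concentration in µM for each dye. Disperse Blue 14 controls lay between 9.59 and 12.1 CPM and the 314 µM embryos at or below 2.84 CPM, both Solvent Violet 47 controls were at 0, and zeros occurred beside values over 5 CPM within groups of other dyes.

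The adjacent gene ugt5b3 was called lower at 40 than at 12 µM Solvent Violet 47 (1.26, 1.25 and 1.39 CPM against 3.11, 2.84 and 2.08 CPM). The log2 difference was -1.05 ± 0.30 (adjusted p = 0.024). It was lost without 12 µM embryo 1 or 2 or 40 µM embryo 3 or 4 (adjusted p from 0.0607 to 0.0799). In the comparisons with the dyes' own controls, ugt5b3 was called nowhere. The gene ugt5e1 was called lower in Solvent Yellow 33 embryos at 9 µM (log2 fold change -1.05) and 12 µM (-1.59) once the library labelled 12 µM embryo 3 was left out. It was also called lower in Disperse Blue 14 embryos without control 1, at 171 µM (-0.97), 261.5 µM (-1.01) and 314 µM (-0.88). Without control 1, ugt5c3 was called higher at 314 µM Disperse Blue 14 (0.90, adjusted p = 0.0474). It was at 9.91, 12.8 and 11.3 CPM there, above the controls at 9.70, 3.29, 7.65 and 7.69 CPM.

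The sulfotransferase gene SULT4A1 (a sulfotransferase of the brain in mammals) was called higher in Disperse Blue 14 and Solvent Red 169 embryos. At 314 µM Disperse Blue 14 it was at 46.4, 74.0 and 61.4 CPM, above controls at 32.5, 21.4, 37.0 and 32.4 CPM (log2 fold change 1.01 ± 0.20, adjusted p = 0.0111). The call was lost without 314 µM embryo 3 (0.84, adjusted p = 0.082). In Solvent Red 169 embryos the controls had 19.9, 15.5, 32.4 and 26.4 CPM, the 5 µM embryos 52.8, 42.5 and 40.5 CPM and the 50 µM embryos 44.6, 55.1 and 33.7 CPM. These groups did not overlap the controls, and controls 1 and 2 were the lowest.

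The log2 fold changes of SULT4A1 were 0.91 ± 0.21 at 5 µM (adjusted p = 0.0228) and 0.89 ± 0.21 at 50 µM Solvent Red 169 (adjusted p = 0.0411). With 1 embryo left out, the former was lost in 3 fits (without control 1 or 5 µM embryo 1 or 2) and the latter in 15 of 19. Both calls ended without controls 1 and 2, and against the pooled controls of all dyes, where the log2 fold changes of SULT4A1 were 0.15 and 0.12. In Solvent Yellow 33 embryos SULT4A1 was at 46.3 to 58.3 CPM in the controls and 15.0 to 50.7 CPM in the exposed embryos. Without the library labelled 12 µM embryo 3 it was called lower at 7.5 µM (-0.63), 10.5 µM (-0.66) and 13.5 µM (-0.68). At 40 µM Solvent Violet 47 it was at 32.6, 42.0 and 30.1 CPM, below both controls at 58.7 and 63.5 CPM, and was not called (-0.84, adjusted p = 0.0898). In that comparison 12 of 39 genes tested lay below both controls.

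UGT8, the galactosyltransferase that makes the myelin lipid galactosylceramide, was called higher in Solvent Red 169 embryos at 2 concentrations. Controls had 13.3, 12.2, 15.4 and 17.9 CPM, the 1 µM embryos 28.8, 29.1 and 32.3 CPM, and the 5 µM embryos 29.7, 24.4 and 21.9 CPM. All 6 exposed embryos lay above all 4 controls, and controls 1 and 2 were the lowest. The log2 fold changes of UGT8 were 1.00 ± 0.16 (adjusted p = 0.023) and 0.75 ± 0.16 (adjusted p = 0.0182). The 1 µM call was lost without control 1 (adjusted p = 0.0962), control 2 (0.0641) or 1 µM embryo 2 (0.15) or 4 (0.0948), and the 5 µM call without control 1 (0.057) or 5 µM embryo 1 (0.128) or 2 (0.0655). Both UGT8 calls also ended without controls 1 and 2, and against the pooled controls of all dyes. In the library labelled 12 µM Solvent Yellow 33 embryo 3, UGT8 was at 2.85 CPM beside 34.3 and 32.3 CPM in embryos 1 and 4.

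Neuron markers also differed in several of these comparisons. The summed level of ELAVL4 and gap43, the 2 of 4 neuron markers found in the table, was 196 and 213 CPM in Solvent Red 169 controls 1 and 2 and 584 and 504 CPM in controls 3 and 4. It was 691 to 814 CPM at 1 µM and 709 to 870 CPM at 5 µM. At 314 µM Disperse Blue 14 it was 592 to 1151 CPM against 330 to 655 CPM in the controls, and ELAVL4 was called higher there (log2 fold change 0.94). Without control 1 of that dye, 0 of 10 neuron marker tests were called higher and 1 lower. Without controls 1 and 2, or against the pooled controls of all dyes, 0 were called. In Solvent Violet 47 embryos the sum was 1059 and 1161 CPM in the controls and 313 to 472 CPM at 40 µM, and ELAVL4 was called lower there (-1.49). UGT8 was called in neither of those 2 groups (0.56, adjusted p = 0.182, and -0.40, adjusted p = 0.416). In Solvent Yellow 33 embryos the sum was 754 to 979 CPM in the controls, 495 to 712 CPM at 10.5 µM and 436 to 550 CPM at 13.5 µM. There, 0 of 10 neuron marker tests were called with all embryos, and 3 were called lower without the library labelled 12 µM embryo 3. The part of these markers in the values of SULT4A1 and UGT8 was not tested.

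**Figure D5:**
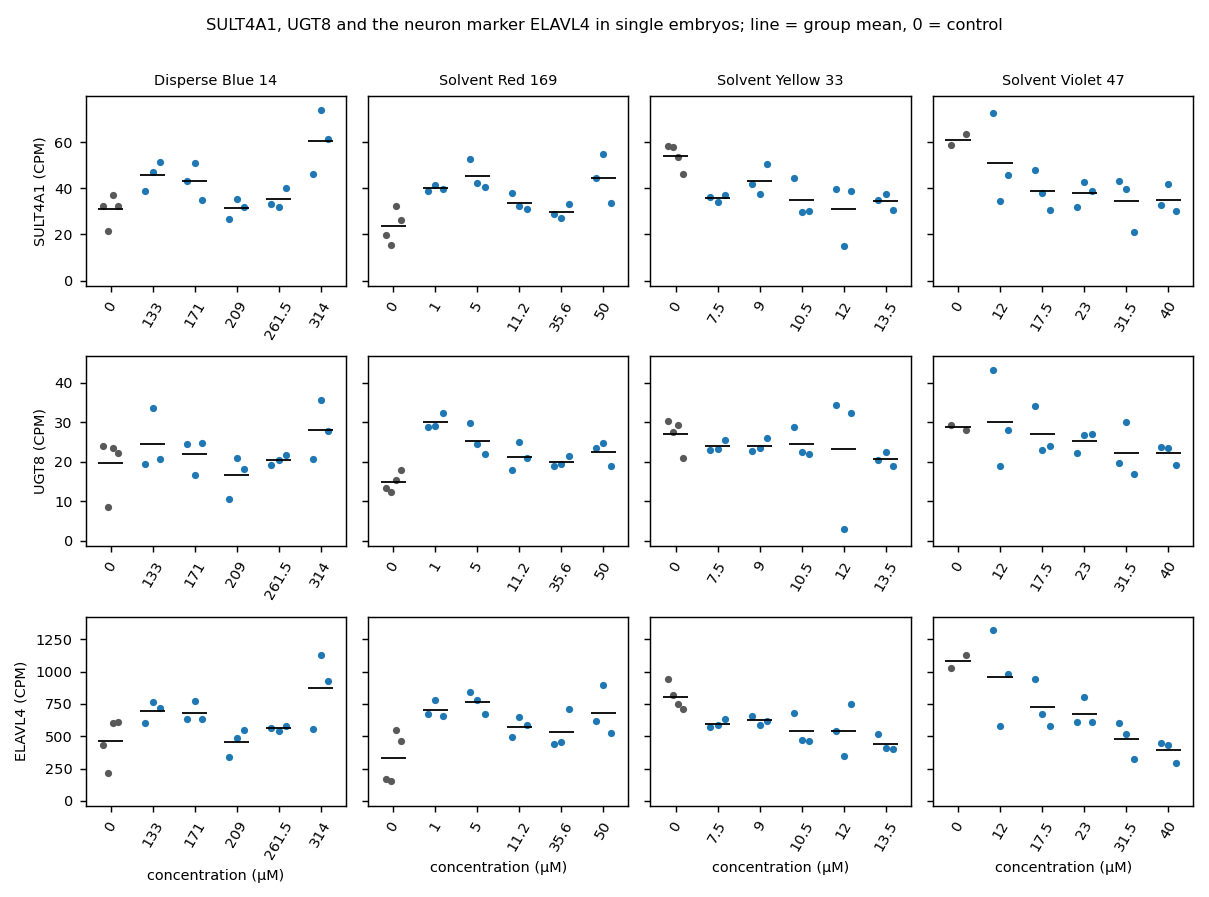
CPM of SULT4A1, UGT8 and the neuron marker ELAVL4 (rows) in every embryo (points, grey for controls, blue for exposed) with the group mean (line), by concentration in µM for 4 dyes. Solvent Red 169 controls 1 and 2 were the lowest controls of their dye in SULT4A1, UGT8 and ELAVL4. At 1 and 5 µM every embryo of that dye lay above its 4 controls in all 3 genes.

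Of the sult2 genes, whose products sulfate steroids, sult2st3 was called higher in the same dyes. At 314 µM Disperse Blue 14 it was at 13.3, 17.4 and 11.5 CPM against 8.01, 4.66, 8.32 and 10.4 CPM in the controls (log2 fold change 0.88 ± 0.25, adjusted p = 0.0322). In Solvent Red 169 embryos it was at 9.23, 10.7 and 8.27 CPM at 5 µM and at 11.5, 15.7 and 8.54 CPM at 50 µM, against controls at 5.21, 3.46, 6.91 and 5.04 CPM. No exposed embryo of these 3 groups overlapped its controls. The Solvent Red 169 log2 fold changes were 0.84 ± 0.24 (adjusted p = 0.0459) and 1.18 ± 0.24 (adjusted p = 0.0283), and both calls ended without controls 1 and 2, and against the pooled controls of all dyes (0.21 and 0.55). The Disperse Blue 14 call also ended without controls 1 and 2. Leaving out 1 embryo ended the call in 14 fits at 5 µM and in 4 at 50 µM, and in 3 fits at 314 µM Disperse Blue 14 (without embryo 3 or 4 or control 2).

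The neighbouring gene sult2st2 was not called against the control of its dye with all embryos in the fit. It was called without libraries that stood apart. In Solvent Yellow 33 embryos it was at 11.2, 10.1, 12.5 and 10.5 CPM in the controls, 5.63, 6.89 and 7.30 CPM at 9 µM and 6.22, 6.76 and 6.62 CPM at 13.5 µM. At 12 µM embryos 1 and 4 had 5.65 and 5.37 CPM, whereas the library labelled embryo 3 had 36.3 CPM. Without that library sult2st2 was called lower at 9 µM (log2 fold change -0.78, adjusted p = 0.00472), 10.5 µM (-0.81, adjusted p = 0.00285), 12 µM (-1.03, adjusted p = 0.0019) and 13.5 µM (-0.79, adjusted p = 0.00221). In Disperse Blue 14 embryos the sult2st2 controls ranged from 4.82 CPM in control 1 to 27.2 CPM in control 2. Without control 1 the gene was called lower at 171 µM (-1.03) and 314 µM (-0.95), and without controls 1 and 2 it was not called. Against the pooled controls of all dyes, sult2st2 was called lower at 40 µM Solvent Violet 47 (-1.14, adjusted p = 0.00612).

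Of the sult1 genes, whose products sulfate phenols, only sult1st4 was called against its dye's control with all embryos in the fit. These calls were in Disperse Blue 14 only. Controls had 11.1, 12.6, 9.38 and 11.5 CPM, the 171 µM embryos 6.18, 4.48 and 6.72 CPM, and the 314 µM embryos 6.17, 4.65 and 5.48 CPM. All 6 exposed embryos lay below the lowest control. On the log2 scale, sult1st4 fell by 0.94 ± 0.19 (adjusted p = 0.0257) and fell by 1.00 ± 0.19 (adjusted p = 0.00966), respectively. At 133 µM the values of 6.70, 5.40 and 8.55 CPM were also below the controls without a call, whereas at 261.5 µM (10.2, 9.89 and 8.57 CPM) the groups overlapped. The 314 µM call was lost only without embryo 3 of that group (adjusted p = 0.0729), and the 171 µM call without embryo 1 or 2 or control 2 or 4 (0.0512 to 0.219). Both calls of sult1st4 held without controls 1 and 2, with log2 fold changes of -0.87 and -0.93. Against the pooled controls of all dyes both held as well (-1.09 and -1.18). In that fit sult1st4 was also called lower at 40 µM Solvent Violet 47 (-0.83, adjusted p = 0.006). Without control 1, sult1st2 was called higher at 314 µM (1.08, adjusted p = 0.0477), at 1.69, 0.775 and 1.05 CPM against 0.862, 0.444, 0.432 and 0.827 CPM in controls 1 to 4, and the groups overlapped.

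The sult3 genes had few reads. Controls of Solvent Yellow 33 had sult3st2 at 1.71, 1.29, 1.05 and 1.26 CPM, and the 10.5 µM embryos 0.264, 0.152 and 0 CPM (log2 fold change -3.20 ± 0.68, adjusted p = 0.0323). All 15 exposed embryos of the dye lay below the 4 controls. The call at 10.5 µM was lost in 11 of 19 fits with 1 embryo left out (adjusted p of 0.0517 to 0.18), and without 10.5 µM embryo 1 the log2 fold change was -3.94. Without the library labelled 12 µM embryo 3, sult3st2 was called at 10.5 µM (-3.21) and 13.5 µM (-2.17). At 40 µM Solvent Violet 47, sult3st5 was at 0.0601, 0 and 0.0267 CPM against 0.400 and 0.540 CPM in the controls (log2 fold change -3.81 ± 1.18, adjusted p = 0.0407). These levels rested on 13 and 15 counts in the controls and at most 2 counts in the exposed embryos, and the call was lost in 5 of 17 fits. Without 40 µM embryo 1 the log2 fold change was -4.63.

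Genes that share inducers with the conjugating enzymes were counted as lists. Of the 6 AhR target genes found, 5 passed the filter in each dye. In Solvent Yellow 33 embryos 1, 3, 3, 2 and 3 of them were called from the lowest to the highest concentration, all higher, with list medians of 2.21 to 3.07 on the log2 scale beside medians of 0.01 to 0.05 over all genes. At 13.5 µM, cyp1c2 rose by 3.68, cyp1c1 by 4.56 and ahrrb, which encodes a repressor of the receptor, by 3.07. In Solvent Violet 47 embryos 2 AhR targets were called at 31.5 µM and 3 at 40 µM (cyp1c2 by 1.49, cyp1c1 by 1.54 and CYP1B1 by 1.05). Against the pooled controls of all dyes, no AhR target was called in Solvent Violet 47 embryos (2 of 25 tests at an unadjusted p under 0.05), and neither were sult6b1 and ugt1b1. Disperse Blue 14 control 1, at 726 CPM summed over the AhR targets, was part of that pooled group.

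In the library labelled 12 µM Solvent Yellow 33 embryo 3, the AhR list summed to 58.5 CPM, beside 938 and 948 CPM in embryos 1 and 4 and 55.7 to 59.4 CPM in the controls. In the same library sult6b1, ugt1b1 and ugt1b5 were low. It also differed from the controls in other genes, with ugt1b5, UGT8 and SULT4A1 below the controls of the dye and sult2st2 above them. Values near the controls in this shallow library therefore do not mark it as a control-like embryo. Without that library 20 of the 25 tests of AhR targets were called, all higher, instead of 12. In Disperse Red 9, Solvent Red 169 and Disperse Blue 14 embryos edgeR called no AhR target in 25 tests each, with 3, 6 and 1 tests at an unadjusted p under 0.05 and 0, 1 and 1 calls by DESeq2. For Disperse Blue 14 this rested on control 1. Without it, an alternative chosen after seeing the data, 15 of the 25 tests were called, all higher, namely CYP1B1, cyp1c1 and cyp1c2 at each of the 5 concentrations. At 209 µM they rose by 1.64, 3.40 and 2.81 on the log2 scale. Without controls 1 and 2, 14 of the 25 tests were called, and against the pooled controls of all dyes 7 were. In Solvent Red 169 embryos no AhR target was called without controls 1 and 2 (5 of 25 tests at an unadjusted p under 0.05).

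Of 12 Nrf2 target genes, 21 calls in 300 tests were higher and 1 was lower. Of all genes, 0% to 15.7% were called in a single comparison, with 0.671% at 9 µM and 1.08% at 10.5 µM Solvent Yellow 33 and 6.26% at 31.5 µM Solvent Violet 47. In Solvent Yellow 33 embryos at 9 and 10.5 µM, 3 were called at each concentration, the glutathione transferase gene gstp1.2 (1.90 and 1.82), GCLC (0.63 and 0.74) and prdx1 (1.86 and 1.97). In Solvent Violet 47 embryos 3 were called at 31.5 µM, the peroxiredoxin gene prdx1 by 1.51 among them. Without the library labelled 12 µM Solvent Yellow 33 embryo 3, 22 of 60 tests in that dye were called, all higher, instead of 10. Without controls 1 and 2, Solvent Red 169 had 0 calls instead of 6, and Disperse Blue 14 had 6 higher instead of 1 lower. Against the pooled controls of all dyes, Solvent Violet 47 had 1 call instead of 5, Solvent Red 169 had 0 and Solvent Yellow 33 had 10.

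The genes that make and deliver the donors, and those that remove or export the conjugates, had few calls. Neither of the 2 genes of UDP-glucuronic acid supply (40 tests) nor any of the 4 genes of PAPS supply and recycling (100 tests) was called by edgeR, with 12 and 8 tests at an unadjusted p under 0.05. DESeq2 made 11 calls in the former list, whose gene UGDH was at 0 in most embryos, and 2 in the latter. At 314 µM Disperse Blue 14, GUSB, the lysosomal enzyme that removes glucuronic acid, was called higher (0.97). The exporter genes ABCC4 (-0.76) and abcg2c (-0.81) were called lower there, the only calls among 11 transporter genes in 245 tests with all embryos. Without control 1 of that dye 2 transporter tests were called lower, and without controls 1 and 2 neither a transporter nor GUSB was called. Without the library labelled 12 µM Solvent Yellow 33 embryo 3, 5 of 45 transporter tests in Solvent Yellow 33 were called lower. Of the nuclear receptor genes, NR1H4, the bile acid receptor, was called lower at 314 µM Disperse Blue 14 (-1.36), 45 µM Disperse Red 9 (-1.24) and 40 µM Solvent Violet 47 (-1.52), and PPARA at 314 µM Disperse Blue 14 (-2.01). Neither was called in Disperse Blue 14 embryos without controls 1 and 2. Against the pooled controls of all dyes, 0 nuclear receptor tests were called in Disperse Red 9 embryos. In that fit 1 was called lower in Disperse Blue 14 and 1 in Solvent Violet 47 embryos. In Solvent Yellow 33 embryos 0 of 10 nuclear receptor tests were called with all embryos, and 4 were called lower without the library labelled 12 µM embryo 3.

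Liver and gut, which carry out much of the conjugation in adults, were followed by marker genes. At 314 µM Disperse Blue 14 fabp10a, a liver marker, was called lower (-4.62), and the 5 liver markers summed to 208 to 359 CPM against 297 to 619 CPM in the controls. At 40 µM Solvent Violet 47 the liver marker GC (-2.51) and the gut markers VIL1 (-2.68) and cdx1b (-1.41) were called lower, and the gut marker FABP2 higher (1.23). In Solvent Yellow 33 embryos, the liver markers summed to 306 to 463 CPM at 10.5 µM and 369 to 436 CPM at 13.5 µM against 324 to 366 CPM in the controls, and none of the 5 was called, while VIL1 was called lower at 10.5 µM (-2.60). In Disperse Red 9 embryos VIL1 was called lower at 45 µM (-1.32) and 55 µM (-1.18), and in Solvent Red 169 embryos cdx1b was called higher at 5 µM (1.21). Without controls 1 and 2 of Solvent Red 169, and against the pooled controls, no gut marker was called in that dye. Pooled controls gave 0 gut marker tests called lower and 1 higher in Disperse Red 9 embryos. In Solvent Violet 47 embryos they gave 2 lower and 0 higher. Without the library labelled 12 µM embryo 3, 6 of 15 gut marker tests were called lower in Solvent Yellow 33 embryos. Without control 1 of Disperse Blue 14, 5 of 25 liver and 4 of 15 gut marker tests were called lower, and without controls 1 and 2, 1 and 3.

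Markers of other tissues differed in the groups with the most calls as well. At 314 µM Disperse Blue 14 all 3 lens markers found were called lower (log2 fold changes of -2.73 for CRYBA4, -2.31 for cryba1l1 and -1.34 for crygm2d1), and so was 1 of 2 muscle markers, actc1b (-2.08). The lens markers summed to 217 to 444 CPM there against 452 to 2936 CPM in the controls. In Solvent Violet 47 embryos crygm2d1 was called lower at 40 µM (-2.14), and the globin gene hbbe3, 1 of 3 erythrocyte markers, higher at 31.5 µM (2.45) and 40 µM (1.84). In Solvent Red 169 embryos the erythrocyte markers hbbe3 (-2.51) and hbae1.1 (-1.31) were called lower at 5 µM, and the epidermis marker cldni higher at 1, 5 and 50 µM (1.13, 1.21 and 1.13). Without controls 1 and 2 of that dye, and against the pooled controls, no erythrocyte or epidermis marker was called. The 4 epidermis markers summed to means of 9669, 9226 and 11205 CPM at 1, 5 and 50 µM, against 11600 CPM in the controls. The epidermis marker krt5 was called lower at 13.5 µM Solvent Yellow 33 (-1.04), and none of the 3 markers of the yolk syncytial layer was called by edgeR or DESeq2 in any dye (3 of 75 tests at an unadjusted p under 0.05). Without the library labelled 12 µM Solvent Yellow 33 embryo 3, 6 of 15 lens and 4 of 20 epidermis marker tests were called lower in that dye. Without control 1 of Disperse Blue 14, 5 lens, 2 muscle and 4 epidermis marker tests were called lower and 1 epidermis test higher. Without controls 1 and 2 of Disperse Blue 14, 1 lens test was called lower and no muscle or epidermis test was called. Against the pooled controls of all dyes, 0 lens and 0 muscle tests were called in Disperse Blue 14 embryos. In that fit 0 erythrocyte tests were called in Solvent Violet 47 embryos, and 3 lens tests were called lower. In Solvent Yellow 33 embryos 2 lens tests were called higher there. The part of all these markers in the values of the conjugating genes was not tested.

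Between the highest and the lowest concentration of a dye, a comparison without controls, 3 of 39 genes were called in Solvent Violet 47 embryos, beside 17.4% of all genes: sult6b1, higher, and ugt1b2 and ugt5b3, lower. In the other 4 dyes edgeR called none, beside 0% of all genes. An unadjusted p under 0.05 was reached there by 2 genes each in Disperse Blue 14, Disperse Red 9 and Solvent Red 169 embryos and by 0 in Solvent Yellow 33 embryos. Over all genes the shares were 4.13%, 3.17%, 1.91% and 1.92% in that order. DESeq2 called 1 gene in Disperse Blue 14 embryos and 0 in the other 3. For Solvent Yellow 33, where the lowest concentration was already above control, this comparison spans 7.5 to 13.5 µM only.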

How the data were processed

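Libraries were made from poly-A RNA of single embryos. Per the methods of the study, the authors trimmed reads with Trim Galore 0.6.5, quantified them with Salmon 1.1.0 against Ensembl release 97 (GRCz11) and summed them by gene. The deposited values used here are the authors' estimated counts, rounded to whole numbers before the fits. The deposited log2 CPM tables were not used here. The methods give 4 embryos per treatment group and mention 1 removed embryo at 12 µM Solvent Yellow 33, without its number, and they give another concentration (113 µM) for the group labelled 133 µM.

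One model per dye was fitted with edgeR 4.0.16 (quasi-likelihood F test, TMM factors, filterByExpr) in R 4.3.3. Each concentration was compared with its dye's control, and the highest with the lowest, with p-values adjusted over all genes tested. Printed CPM use TMM factors over all 93 embryos. Standard errors are the absolute log2 fold change divided by the square root of F. Counts of 3 or fewer were taken as the floor. The fit was tested on simulated data.

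Named were all members called in any comparison and those called once a library that stood apart was left out, and for lists the called genes. Per-embryo values are given for the members called most often. Members and gene lists were chosen with earlier results of these data known. Of the 49 symbols in the name table that fit the rule, 7 were not in the count table and are not analysed here. Alternatives were DESeq2 1.42.0, median-ratio factors, no filter, newer edgeR dispersion settings, the compared groups alone, pooled controls, a replicate block, and leaving out embryos. No pair of embryos of a group agreed within sampling noise. No sequences are printed.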

Additional observations from a re-analysis of the deposited data

Results flagged for a closer look

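Dixon's criterion was applied to 19 genes in each control group of 4 embryos, 76 tests in which genes share embryos. In 5 of these tests, 1 control lay far from the other 3. Chance alone meets the criterion in about 1 of 20 tests. Of these, 3 were in Disperse Blue 14 control 2. UGT8 was at 8.59 CPM there against 22.2 to 24.0 CPM in the other controls, ugt1b7 at 8.77 CPM against 6.78 to 7.06 CPM, and ugt2a4 at 9.68 CPM against 4.47 to 4.76 CPM. Disperse Red 9 control 4 had 49.7 CPM of sult2st1, the highest of all controls. Solvent Red 169 control 3 had 0.299 CPM of sult3st5 while the other 3 controls of that dye were at 0.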

How the results depend on the processing

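Counts are genes of both families called at any concentration of a dye. With all embryos, Disperse Blue 14 had 5, Solvent Red 169 had 7, Solvent Violet 47 had 4, Solvent Yellow 33 had 3 and Disperse Red 9 had 0. With only the groups compared in each fit they were 0 for Disperse Blue 14, 0 for Solvent Red 169 and 9 for Solvent Yellow 33, and 1 instead of 3 for the highest against the lowest concentration of Solvent Violet 47. With controls of all dyes pooled they were 0 for Solvent Red 169, 6 for Solvent Yellow 33 and 11 for Solvent Violet 47, and without Solvent Red 169 controls 1 and 2 they were 0. DESeq2 gave 5 for Solvent Yellow 33 and 10 for Solvent Violet 47, and for highest against lowest 1 for Disperse Blue 14 and 6 for Solvent Violet 47. Without the filter Solvent Violet 47 had 2. Over all genes, pooled controls gave at most 3 calls at any Solvent Red 169 concentration and 3406 at 40 µM Solvent Violet 47. Solvent Yellow 33 had 42 to 2202 in that fit. For DESeq2, the compared groups alone and the replicate block, calls over all genes are not given, so those counts stand without a share. Without Solvent Red 169 controls 1 and 2, at most 1 of all genes was called at any of its concentrations.

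Between embryos with the same number in different groups, the median correlation of their deviations was -0.07 to 0.00 by dye. Single pairs ranged from -0.68 to 0.68, and 11 to 15 pairs by dye were over 0.1. With this spread in groups of few embryos, the median cannot show whether the numbers pair embryos. With a replicate block the counts were 4, 5, 8, 2 and 0 in the order above.

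With 1 embryo left out, the counts ranged from 1 (without 314 µM embryo 3) to 12 (without control 1) for Disperse Blue 14, from 0 to 0 for Disperse Red 9, from 0 (without control 1) to 14 (without control 3) for Solvent Red 169, from 2 to 7 (without 12 µM embryo 3) for Solvent Yellow 33 and from 0 (without control 4) to 7 (without 40 µM embryo 1) for Solvent Violet 47. For highest against lowest they ranged from 0 to 1 for Disperse Blue 14, from 1 to 4 for Solvent Violet 47 and stayed at 0 for the other 3 dyes. The number of all genes called moved as well. From the lowest to the highest concentration of Solvent Yellow 33 it was 294, 741, 977, 1131 and 1583 without 12 µM embryo 3. With that library it was 32, 118, 189, 190 and 440. For Disperse Blue 14 it was 370, 806, 379, 827 and 4009 without control 1, and 18, 137, 24, 191 and 2802 with it. For most other such fits, among them that without Solvent Red 169 control 3, the number over all genes is not given here. Of 36 calls, 5 held in every such fit: sult6b1 at 9, 10.5 and 13.5 µM and ugt1b1 at 13.5 µM Solvent Yellow 33, and sult6b1 between 40 and 12 µM Solvent Violet 47. All 36 held under DESeq2, median-ratio factors and newer dispersion settings, and 33 without the filter. Fewer held in the other fits: 21 of 36 with the replicate block, 10 of 35 with only the groups compared, 12 of 33 with pooled controls and 4 of 18 without controls 1 and 2 of Disperse Blue 14 or Solvent Red 169, all 4 in Disperse Blue 14. None reversed under these alternatives. Pooled controls also gave calls of genes not called against the dye's own control. At 31.5 and 40 µM Solvent Violet 47 these included ugt1b4 (2.68 and 2.79) and ugt5a1 (2.73 and 2.58). Both were near the floor, with means of 0.177 and 0.0871 CPM over the controls. At 40 µM Solvent Violet 47 they also included ugt1b5 (1.13), ugt5e1 (-1.24), sult2st2 (-1.14) and sult1st4 (-0.83). The causes were not tested. Genes under about 1 CPM rest on few counts per embryo.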
